A study of Mus musculus with 12 samples.

Results

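The 8 genes described here encode the sensors of the unfolded protein response, the transcription factor XBP1 and the kinases that phosphorylate the translation factor eIF2 alpha. They were taken by gene symbol as Ern1, Xbp1, Atf6, Atf6b, Eif2ak1, Eif2ak2, Eif2ak3 and Eif2ak4. All 8 were listed among the 23235 entries of the fetal liver data and the 24421 entries of the fibroblast data, and all 8 passed the filters on low values in both, which left 12938 and 13241 genes for testing. RNA sequencing compared G2A mice, labelled Rpt2G2A/G2A, with wild-type (WT) mice, as untreated fetal livers at E12.5 and as untreated immortalized mouse embryonic fibroblasts (MEFs). As background, the allele replaces the glycine of the proteasome ATPase Rpt2, encoded by Psmc1, to which a myristoyl lipid anchor is attached. The livers comprised 3 G2A and 3 WT libraries, described as littermate pairs, although no label ties a sample number to a litter. The MEF values comprised 2 G2A and 3 WT libraries, and the third labelled G2A MEF sample had no matching column and was not analysed here. No label says whether the MEF libraries came from separate lines or cultures, so p-values there measure the spread between these libraries, which may be technical.

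The unfolded protein response reports on protein folding in the endoplasmic reticulum (ER). IRE1 alpha (Ern1) is an ER membrane kinase and RNase that cuts Xbp1 mRNA so that the active transcription factor can be made, ATF6 alpha (Atf6) and ATF6 beta (Atf6b) are membrane-bound factors released by proteolysis in the Golgi, and PERK (Eif2ak3) phosphorylates eIF2 alpha. The same site on eIF2 alpha is used by HRI (Eif2ak1), which senses heme and is best known from red cell precursors, by PKR (Eif2ak2), which senses double-stranded RNA and is induced by interferon, and by GCN2 (Eif2ak4), which senses uncharged transfer RNA. Gene-level RNA values do not show Xbp1 splicing, ATF6 cleavage or kinase activity.

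Liver values were FPKM, a fragment count scaled to gene length and library depth,, and had column totals of 792987 to 840762 and an unknown read depth. MEF values were normalized reads, each library's whole read counts scaled by its own size factor, from 36415586 to 37695116 gene reads a library. In each sample type 1 library stood apart. On the first principal component of the livers (37.9% of the variance) G2A livers 1, 2 and 3 lay at -30.6, -34.9 and 7.91, against 13.3, 23.3 and 21.1 for WT livers 1, 2 and 3. On that of the MEFs (73.4%) G2A MEFs 1 and 2 lay at -51.5 and -55.2, against 87.2, 92.0 and -72.5 for WT MEFs 1, 2 and 3. WT MEF 3 also carried a summed level of 82960 normalized reads over the 17 listed interferon-response genes, against 5359 and 5010 in the G2A MEFs and 7284 and 5130 in the other WT MEFs. Psmc1 had 152 ± 8.08 FPKM in G2A and 179 ± 1.90 FPKM in WT livers (SD, n = 3 each; limma adjusted p = 0.114), and 10660 and 10910 normalized reads in G2A MEFs against 7393, 8589 and 6485 in WT MEFs (limma adjusted p = 0.282). The point mutation itself cannot be read from expression levels. Without G2A liver 3 and without WT MEF 3 these 2 differences passed the test (limma adjusted p = 0.0172 and 0.0339). In those fits 12.2% of all genes were called lower in liver and 11.9% higher in MEFs. The liver is largely erythroid at this stage; all 11 listed erythroid markers and all 10 hepatoblast markers passed the filter there. In MEFs 8 of 9 mesenchyme and fibroblast markers passed, but so did 8 of 10 hepatoblast markers, so passing this filter does not tell cell types apart.

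In fetal liver the mRNAs of XBP1, ATF6 alpha and PERK were higher in all 3 G2A livers than in any WT liver, by 1.13-fold to 1.18-fold on the log2(value + 1) scale, and no sensor or kinase mRNA was lower without overlap. For PERK this rested on a near tie, 5.313 FPKM in G2A liver 3 against 5.312 FPKM in WT liver 3. With limma on log2(FPKM + 1) and p-values adjusted by Benjamini-Hochberg over the whole table, 0 of the 8 were called at 0.05. That test called 2 genes higher and 1 lower, which is 0.0155% and 0.00773% of the 12938. At an unadjusted p under 0.05, Xbp1 and Atf6 were among the 9.07% of genes that were higher, and no member was among the 12.4% that were lower. Non-overlap upward, seen in 3 of the 8, occurred in 11.8% of all genes, and non-overlap downward, seen in 0 of the 8, in 15.7%.

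**Figure D1:**
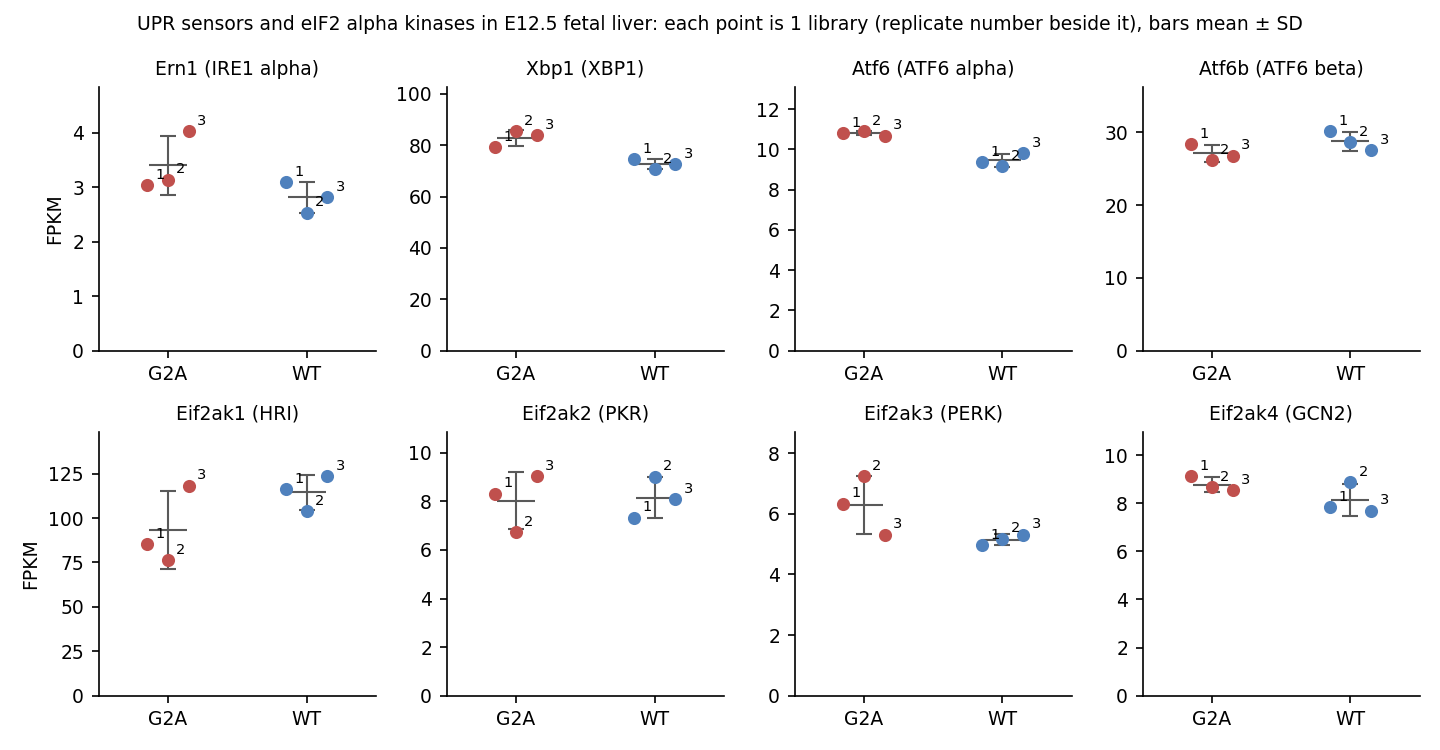
FPKM (y axis, from 0) of the 8 genes in 3 G2A and 3 WT fetal livers, each point 1 library with its replicate number and bars the mean ± SD. Xbp1, Atf6 and Eif2ak3 lay higher in every G2A liver than in every WT liver, the last by 5.313 against 5.312 FPKM at the nearest points, and Eif2ak1 was at 118 FPKM in G2A liver 3 but at 85.5 and 76.2 FPKM in G2A livers 1 and 2.

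In MEFs the sign was opposite to liver for 7 of the 8 genes and for 6556 of 10818 tested in both. No member passed the test of that difference, which is given below. Xbp1, Atf6 and Eif2ak3 were lower in both G2A MEFs than in any WT MEF, at 0.800, 0.682 and 0.775 times the WT level on the log2(value + 1) scale, and Atf6b and Eif2ak1 were higher in both, at 1.31 and 1.21 times. No member passed the limma test on log2(normalized reads + 1), in which 0% of the 13241 genes were called in either direction. At an unadjusted p under 0.05, 6.9% of genes were higher and 7.48% lower, with Atf6 as the 1 member below it. Non-overlap upward occurred in 18.9% of all genes and in 2 of the 8, and non-overlap downward in 18% of all genes and in 3 of the 8. On the recovered whole reads, edgeR's quasi-likelihood test also called 0 genes, while DESeq2 called 389 higher and 639 lower genes, none of them a member.

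**Figure D2:**
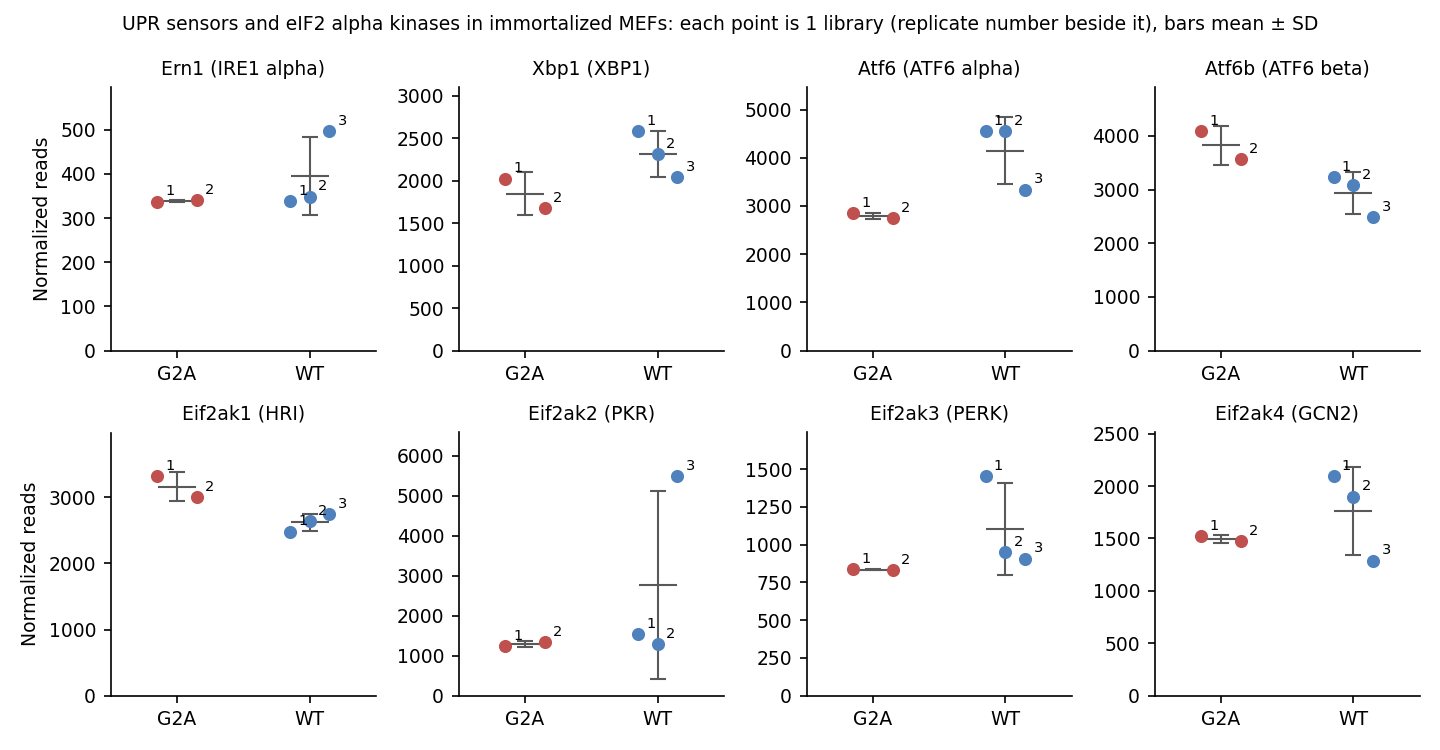
Normalized reads (y axis, from 0) of the 8 genes in 2 G2A and 3 WT MEF libraries, each point 1 library with its replicate number and bars the mean ± SD. Both G2A MEFs lay lower than every WT MEF for Xbp1, Atf6 and Eif2ak3 and higher for Atf6b and Eif2ak1, and WT MEF 3 stood alone for Eif2ak2 at 5487 normalized reads.

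Levels were ordered within each sample type only, per unit of gene length. In liver Eif2ak1 was the most abundant, at 93.4 ± 22.1 FPKM in G2A and 115 ± 9.89 FPKM in WT livers (SD, n = 3 each), and Xbp1 followed at 82.8 ± 3.24 and 72.6 ± 1.94 FPKM. The 2 genes overlapped among G2A livers, where Eif2ak1 spanned 76.2 to 118 FPKM, and not among WT livers. Atf6b came next at 27.1 ± 1.12 FPKM in G2A and 28.8 ± 1.28 FPKM in WT livers, then Atf6 at 10.8 ± 0.109 and 9.45 ± 0.335 FPKM. Eif2ak4, at 8.77 ± 0.309 and 8.14 ± 0.646 FPKM, and Eif2ak2, at 8.03 ± 1.17 and 8.15 ± 0.841 FPKM, could not be put in order beyond their spread. Eif2ak3, at 6.29 ± 0.961 and 5.15 ± 0.180 FPKM, overlapped Eif2ak2 among G2A livers and lay below both of these genes among WT livers. Ern1 was the lowest, at 3.40 ± 0.544 FPKM in G2A and 2.81 ± 0.278 FPKM in WT livers.

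In MEFs, normalized reads were divided by the merged exon length of each gene in kilobases (reads per kb). Atf6b led with 1388 ± 133 reads per kb in G2A (n = 2) and 1065 ± 143 in WT MEFs (n = 3), and lay above every other member in every library except Eif2ak2 in WT MEF 3. Xbp1 followed at 569 ± 76.0 and 711 ± 83.5 reads per kb. Eif2ak1 was at 557 ± 38.8 reads per kb in G2A MEFs, overlapping Xbp1 there, and at 461 ± 22.9 in WT MEFs, where it lay below Xbp1 and overlapped Atf6. Atf6 was at 375 ± 9.01 and 555 ± 93.5 reads per kb. Eif2ak2 was at 252 ± 13.4 reads per kb in G2A MEFs, below Atf6, and at 541 ± 461 in WT MEFs, where it reached 1073 in WT MEF 3. In G2A MEFs Eif2ak4 and then Eif2ak3 came below Eif2ak2 with no overlap, and in WT MEFs the ranges of these 3 genes overlapped. Ern1 was again the lowest at 41.4 ± 0.253 and 48.3 ± 10.8 reads per kb.

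Ern1 lies on the minus strand of chromosome 11 (106255964 to 106349166, NCBIM37, which is the mm9 build), with no other annotated gene overlapping it. It had 3.03, 3.14 and 4.03 FPKM in G2A livers 1, 2 and 3, against 3.09, 2.53 and 2.82 FPKM in the WT livers. G2A livers 2 and 3 lay above the WT range, G2A liver 2 narrowly, and G2A liver 1 lay within it (log2 fold change 0.20, SE 0.12, limma adjusted p = 0.38; log2 fold change 0.10 without G2A liver 3). In MEFs it had 337 and 340 normalized reads in G2A against 339, 349 and 496 in WT. Here the 5 libraries lay close together apart from WT MEF 3 (log2 fold change -0.20, SE 0.24, limma adjusted p = 0.72), and without that library the log2 fold change was -0.02.

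Xbp1, on the plus strand of chromosome 11 (5420662 to 5425896, NCBIM37), encodes the transcription factor whose mRNA IRE1 alpha splices and whose transcription ATF6 is known to raise. It had 79.1, 85.4 and 83.8 FPKM in G2A livers 1, 2 and 3, against 74.6, 70.7 and 72.5 FPKM in WT livers 1, 2 and 3. The groups did not overlap, and the log2 fold change of 0.19 (SE 0.05, 95% interval 0.06 to 0.31) had an adjusted p of 0.138 in limma. In MEFs it had 2023 and 1673 normalized reads in G2A against 2579, 2313 and 2037 in WT. G2A MEF 1 lay just below WT MEF 3, the groups did not overlap, and the log2 fold change was -0.32 (SE 0.16, 95% interval -0.71 to 0.07, limma adjusted p = 0.406), or -0.18 without G2A MEF 2. The ratio of Xbp1 to Ern1 per unit length was 24.7 ± 3.41 in G2A and 25.9 ± 1.90 in WT livers, and 13.7 ± 1.92 in G2A and 15.4 ± 4.55 in WT MEFs, with overlapping ranges in both.

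Atf6, on the minus strand of chromosome 1 (172634588 to 172797902, NCBIM37), had 10.8, 10.9 and 10.7 FPKM in the G2A livers against 9.38, 9.16 and 9.81 FPKM in the WT livers. The 3 G2A livers lay close together and above every WT liver (log2 fold change 0.18, SE 0.06, 95% interval 0.02 to 0.33, limma adjusted p = 0.193). In MEFs Atf6 had 2844 and 2749 normalized reads in G2A against 4545, 4547 and 3338 in WT. WT MEF 3 was the nearest to the G2A libraries, the groups did not overlap, and the log2 fold change of -0.55 (SE 0.17, 95% interval -0.98 to -0.12) had a limma adjusted p of 0.3. Without WT MEF 3 it was -0.70 with a limma adjusted p of 0.00456, where 11.9% of all genes were called higher and 11.8% lower.

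Atf6b, the other ATF6 gene, on the plus strand of chromosome 17 (34784091 to 34792019, NCBIM37), had the opposite sign to Atf6 in both sample types. It had 28.4, 26.2 and 26.8 FPKM in G2A livers 1, 2 and 3 against 30.2, 28.6 and 27.6 FPKM in the WT livers, which overlapped (log2 fold change -0.08, SE 0.06, limma adjusted p = 0.463), and the log2 fold change was -0.05 without WT liver 1. In MEFs it had 4086 and 3568 normalized reads in G2A against 3234, 3082 and 2490 in WT. Both G2A MEFs lay above every WT MEF, with WT MEF 3 the lowest (log2 fold change 0.39, SE 0.15, 95% interval -0.00075 to 0.78, limma adjusted p = 0.348).

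The ratio of Atf6 to Atf6b within a library, per unit length, was computed after these values were seen and is given without a test. It was 0.381, 0.416 and 0.399 in the G2A livers against 0.311, 0.320 and 0.355 in the WT livers, 1.21 times higher in the means without overlap. In MEFs it was 0.257 and 0.285 in G2A against 0.519, 0.545 and 0.495 in WT, a ratio of means of 0.521. WT MEF 3, which stood apart on the first principal component, lay with the other WT MEFs in this ratio.

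**Figure D3:**
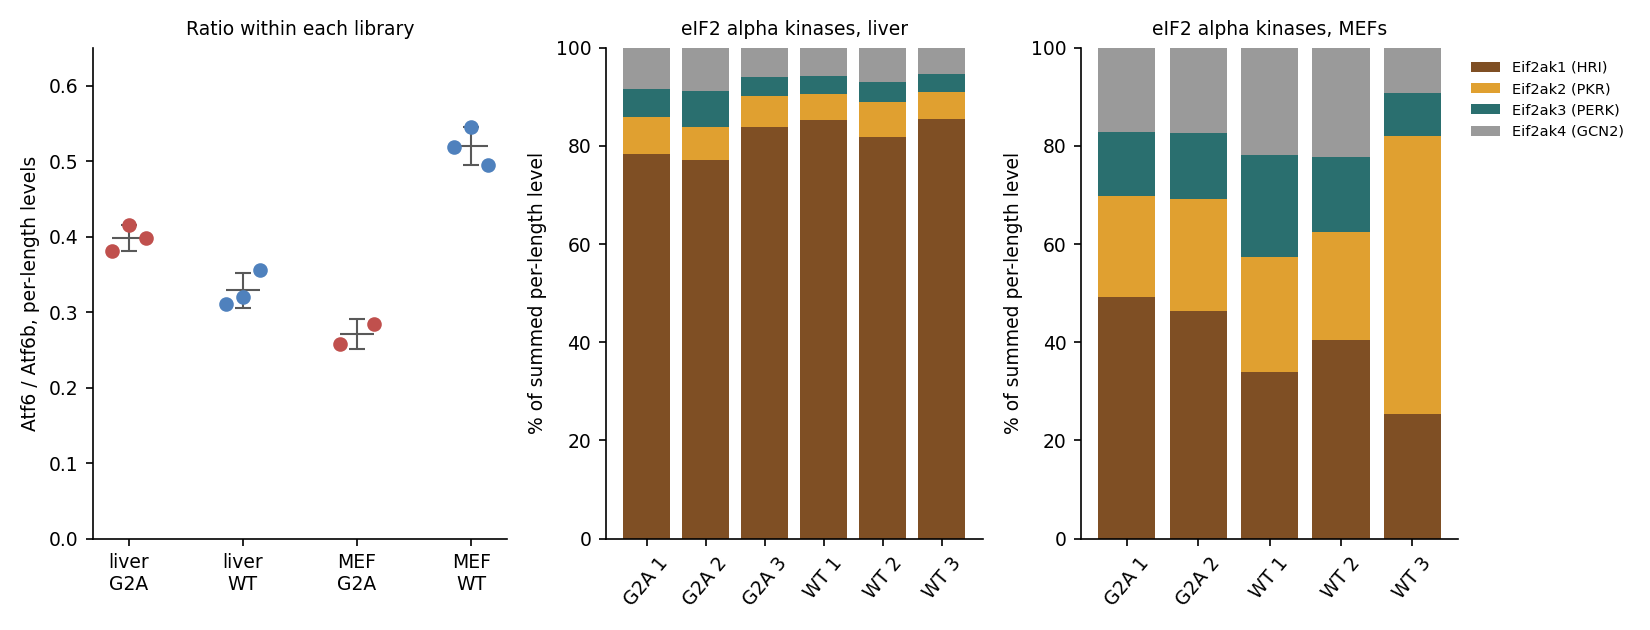
Left, ratio of Atf6 to Atf6b (y axis, per unit length) in each library with mean ± SD: it was higher in G2A than in WT livers (means 0.399 and 0.329) and lower in G2A than in WT MEFs (means 0.271 and 0.520). Middle and right, percent of the summed per-length level of the 4 eIF2 alpha kinase genes taken by each gene in every liver and MEF library, with Eif2ak1 the largest share in every library except WT MEF 3.

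Among the kinases, Eif2ak1 varied most within the G2A livers. It had 85.5, 76.2 and 118 FPKM in G2A livers 1, 2 and 3 against 116, 104 and 123 FPKM in WT livers 1, 2 and 3. G2A livers 1 and 2 lay below all WT livers and G2A liver 3 within their range, and the log2 fold change was -0.31 (SE 0.17, 95% interval -0.72 to 0.09, limma adjusted p = 0.322). Without G2A liver 3 it was -0.50 with a limma adjusted p of 0.0185, where 12.3% of all genes were called higher and 12.2% lower, and without G2A liver 2 it was -0.18 (limma adjusted p = 0.652).

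The erythroid marker list moved over the same libraries. The mean log2 level of its 11 genes relative to the WT mean was -0.59, -0.71 and 0.08 in G2A livers 1, 2 and 3, against 0.04, -0.26 and 0.21 in the WT livers, and its summed level was 10980, 10340 and 20860 FPKM against 19910, 12810 and 19760 FPKM. Most of that sum was the globin gene Hba-a1, at 9201, 8798 and 17930 FPKM in G2A against 17110, 10560 and 16540 FPKM in WT livers. No listed erythroid marker was at 0 in liver. The hepatoblast list also had its highest G2A sum in liver 3, at 10100, 9949 and 14080 FPKM against 10170, 10870 and 12550 FPKM in WT livers. Its mean log2 levels were -0.07, 0.07 and 0.21 in G2A against -0.09, -0.04 and 0.13 in WT livers, which overlapped. The part of red cell precursors or of hepatoblasts in the Eif2ak1 values was not tested. In bulk tissue fewer cells of a type and less RNA per cell cannot be told apart. The level of the other 3 kinase genes together was 23.8, 22.6 and 22.9 FPKM in the G2A livers and 20.1, 23.1 and 21.1 FPKM in the WT livers, which overlapped.

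In MEFs Eif2ak1 had 3315 and 3004 normalized reads in G2A against 2480, 2634 and 2739 in WT. Both G2A MEFs lay above every WT MEF (log2 fold change 0.27, SE 0.11, 95% interval -0.0019 to 0.54, limma adjusted p = 0.348). Its share of the kinase total was 49.3% and 46.4% in G2A against 34.0%, 40.6% and 25.4% in WT MEFs, and 78.3%, 77.1% and 83.8% in G2A against 85.2%, 81.8% and 85.4% in WT livers. Eif2ak1 lies on the plus strand of chromosome 5 (144578657 to 144665125, NCBIM37) and shares 487 exonic bases with Aimp2, a scaffold of the transfer RNA synthetase complex, and 172 with Ankrd61, both on the opposite strand. Whether counting used strand is not given in the sources used here, so reads from the shared bases are uncertain. Aimp2 had 63.0, 59.1 and 72.8 FPKM in G2A against 76.0, 78.3 and 83.2 FPKM in WT livers, and 4201 and 4396 normalized reads in G2A against 2903, 4112 and 2966 in WT MEFs.

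Eif2ak2 overlapped between genotypes in liver, with 8.31, 6.74 and 9.03 FPKM in the G2A livers against 7.34, 9.01 and 8.09 FPKM in the WT livers (log2 fold change -0.02, SE 0.13, 95% interval -0.33 to 0.28, limma adjusted p = 0.928). In MEFs it had 1240 and 1336 normalized reads in G2A against 1535, 1283 and 5487 in WT. WT MEF 3 stood far above the other 4 libraries, and Eif2ak2 took 56.6% of the kinase total there. The log2 fold change of -0.78 (SE 0.65, 95% interval -2.41 to 0.85, limma adjusted p = 0.596) was -0.12 without that library and -1.17 without WT MEF 2.

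The interferon list moved with it. The mean log2 level of its 14 tested genes was -1.21 and -1.28 in G2A against -1.41, -2.17 and 3.59 in WT MEFs, relative to the WT mean. Stat2, which carries the interferon signal to the nucleus, had 558 and 582 normalized reads in the G2A MEFs, against 1676, 1040 and 8524 in the WT MEFs. The part of an interferon response in the Eif2ak2 values was not tested.

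The promoter of Eif2ak2, a known interferon-induced gene, is shown because it was the 1 member window with the interferon-response core GAAANNGAAA, searched on both strands after these values were seen. No value here links the site to the level of the gene. The window runs 250 bases before to 50 bases after the RefSeq transcription start (GRCm38.p6, chr17:78882523-78882822, minus strand), and capitals mark the match, at bases 19 to 28 after the start.
Eif2ak2: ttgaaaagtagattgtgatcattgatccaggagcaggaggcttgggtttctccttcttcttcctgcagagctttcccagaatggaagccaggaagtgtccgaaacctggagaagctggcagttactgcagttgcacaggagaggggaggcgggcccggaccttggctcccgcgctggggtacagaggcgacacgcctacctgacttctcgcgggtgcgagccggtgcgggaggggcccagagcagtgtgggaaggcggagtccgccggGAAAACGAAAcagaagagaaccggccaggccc
This core occurred in 3.44% of the 32851 promoter windows of RefSeq and in 8 of 15 windows of the interferon list (53.3%). A match describes letters and is not evidence of binding. Eif2ak2 itself lies on the minus strand of chromosome 17 (79251904 to 79281913, NCBIM37), overlapping a noncoding RNA gene and a ribosomal RNA copy of the opposite strand that have no entry in either set of values.

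Eif2ak3, the ER kinase, on the plus strand of chromosome 6 (70794509 to 70855239, NCBIM37), had 6.34, 7.23 and 5.31 FPKM in G2A livers 1, 2 and 3 against 4.96, 5.18 and 5.31 FPKM in WT livers. G2A livers 1 and 2 lay clearly above the WT range, and G2A liver 3 exceeded WT liver 3 only at the fourth digit. The log2 fold change was 0.24 (SE 0.11, 95% interval -0.04 to 0.51, limma adjusted p = 0.285). Without G2A liver 3 it was 0.34 with a limma adjusted p of 0.0423, where 12.3% of all genes were called higher, and without G2A liver 2 it was 0.15 (limma adjusted p = 0.607). In MEFs it had 837 and 832 normalized reads in G2A against 1452, 949 and 907 in WT. WT MEF 1 was far above the other 4 libraries (log2 fold change -0.37, SE 0.24, 95% interval -0.97 to 0.24, limma adjusted p = 0.507), and without it the log2 fold change was -0.15 (limma adjusted p = 0.814).

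Eif2ak4, on the plus strand of chromosome 2 (118214353 to 118300970, NCBIM37), had 9.12, 8.66 and 8.53 FPKM in G2A against 7.84, 8.88 and 7.69 FPKM in WT livers. WT liver 2 lay inside the G2A range (log2 fold change 0.10, SE 0.08, limma adjusted p = 0.502), and the log2 fold change was 0.16 without it and 0.06 without WT liver 3. In MEFs it had 1525 and 1471 normalized reads in G2A against 2092, 1899 and 1289 in WT, so that WT MEF 3 lay below both G2A MEFs and the other WT MEFs above them. The log2 fold change was -0.20 (SE 0.23, limma adjusted p = 0.698), and without WT MEF 3 it was -0.41 with a limma adjusted p of 0.0379, where 11.8% of all genes were called lower. Without WT MEF 1 it was -0.06 and without WT MEF 2 -0.13 (limma adjusted p = 0.953 and 0.837).

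The difference between the genotype effects was tested directly, as the liver log2 fold change minus the MEF log2 fold change over their combined standard error. Adding 1 before the log shrinks effects of low FPKM values more than those of high read values, so the scales differ for low genes. No member passed, while 1.34% of the 10818 genes tested in both passed with the liver effect above the MEF effect and 0.869% with it below. Atf6 had the smallest p, with a difference of 0.73 (SE 0.18, adjusted p = 0.0822 over all genes, from the limma fits). The differences were 0.51 for Xbp1 (adjusted p = 0.132), -0.59 for Eif2ak1 (0.116), -0.47 for Atf6b (0.151) and 0.61 for Eif2ak3 (0.218), all from the limma fits. Effects had opposite signs in liver and MEFs for 7 of the 8, Eif2ak2 being below 0 in both, and for 6556 of all 10818 genes. Without WT MEF 3 the difference passed with the liver effect above for Xbp1, Atf6 and Eif2ak4, where 14.8% of all genes passed in that direction, and with it below for Atf6b and Eif2ak1, where 15.6% did. Without G2A liver 3 it passed for Eif2ak1 alone among the 8, with the liver effect below, as in 3.73% of all genes, and 5.17% passed with it above.

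**Figure D4:**
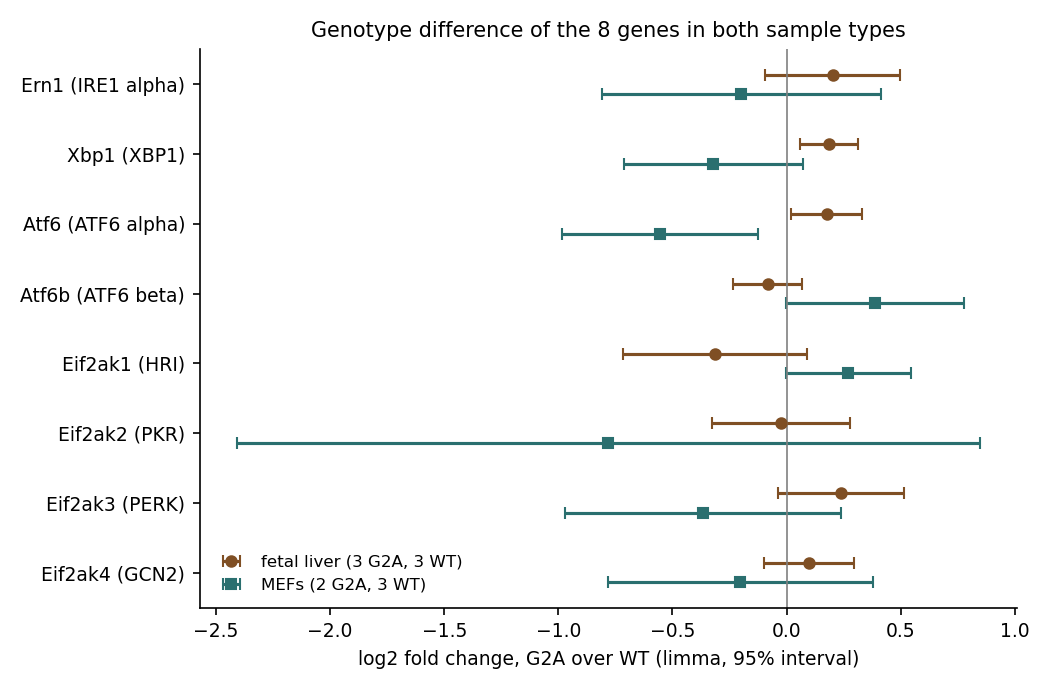
Log2 fold change of G2A over WT (x axis) for the 8 genes (rows), in fetal liver (brown circles, 3 G2A and 3 WT) and MEFs (teal squares, 2 G2A and 3 WT), with 95% intervals from limma. Liver intervals lie above 0 for Xbp1 and Atf6, the MEF interval lies below 0 for Atf6, and the widest is that of Eif2ak2 in MEFs, from -2.41 to 0.85.

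The factors that hold, process or assist the sensors included Hspa5 (BiP), the chaperone that binds the sensor lumenal domains, the ATF6 proteases, the NF-Y subunits, the CREB3 family and regulators of PKR and GCN2. Of 21 tested in liver, 12 were above and 9 below 0 and none passed. Their median log2 fold change was 0.04, against 0.01 over all genes. Hspa5 had 438, 512 and 432 FPKM in G2A against 334, 332 and 336 FPKM in WT livers. Each G2A liver lay well above the narrow WT range (log2 fold change 0.46, SE 0.08, limma adjusted p = 0.0902). Dnajc3, the ER co-chaperone P58IPK known to inhibit PERK and PKR, had 28.5, 32.9 and 29.9 FPKM in G2A against 20.5, 21.4 and 21.2 FPKM in WT livers, again without overlap (log2 fold change 0.51, limma adjusted p = 0.0902). In MEFs 11 of 20 were above and 9 below 0, with none past the test and a median of 0.04 against 0.015 over all genes. Hspa5 had 26380 and 23880 normalized reads in G2A against 34670, 33680 and 35040 in WT MEFs, with no overlap (log2 fold change -0.46, SE 0.13, limma adjusted p = 0.291). Nfya, a subunit of the CCAAT-binding factor that works with ATF6, had 2739 and 3033 against 2221, 2542 and 2275 normalized reads (limma adjusted p = 0.344).

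The target genes of XBP1 and ATF6 (ER chaperones, disulfide isomerases and components of ER-associated degradation) lay almost all above 0 in liver. Of 27 tested, 26 were above 0, 19 were higher without overlap against 11.8% of all genes, and 1 was lower without overlap against 15.7%. The median log2 fold change was 0.34, against 0.01 over all genes. Only Derl3, a membrane protein of ER-associated degradation, passed the test: it rose to 22.1, 37.8 and 26.0 FPKM in the G2A livers, against 0.725, 0.804 and 1.59 FPKM in the WT livers (log2 fold change 3.85, SE 0.24, limma adjusted p = 0.0106). WT livers 1 and 2 lay below the filter's 1 FPKM, so Derl3 entered the test only through the G2A livers. Leaving out WT liver 1 or WT liver 2 ended its call (limma adjusted p = 0.143 and 0.09). Averaged over the list, log2 levels relative to WT were 0.44, 0.62 and 0.40 in G2A livers 1, 2 and 3, against -0.01, -0.02 and 0.03 in the WT livers, so G2A liver 3 lay with the other G2A livers here. Without G2A liver 3, 17 of the 27 were called higher and 0 lower, where 12.3% of all genes were called higher, Hspa5 and Dnajc3 among the 17 (limma adjusted p = 0.0139 and 0.013).

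In MEFs the same 27 genes had 5 above and 22 below 0, 2 higher without overlap against 18.9% of all genes and 5 lower against 18%, which is near that share, none past the test, and a median of -0.09 against 0.015 over all genes. The same average was -0.12 and -0.11 in G2A against 0.09, 0.00 and -0.08 in WT MEFs, with WT MEF 3 close to the G2A libraries. Without WT MEF 3, 4 of the 27 were called lower, where 11.8% of all genes were, Hspa5 among them (limma adjusted p = 0.0324). The median was then -0.19, and 16 were lower without overlap, where 33.4% of all genes were. Sel1l, the scaffold of an ER degradation ligase, had 4189 and 4191 normalized reads in G2A against 5754, 5025 and 5653 in WT MEFs, without overlap (log2 fold change -0.38, limma adjusted p = 0.285). The mesenchyme and fibroblast list, whose cells secrete much matrix protein, also moved in liver: the mean of its 9 genes was 0.92, 1.23 and 0.39 in G2A livers 1, 2 and 3 against 0.20, -0.30 and 0.10 in WT livers, and its summed level 1635, 2276 and 1159 FPKM against 848, 619 and 836 FPKM. Of its 9 genes in liver 8 were above 0 and 5 were higher without overlap, against 11.8% of all genes there. The part of these cells in the target gene values was not tested.

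The ER stress response element (ERSE) is the sequence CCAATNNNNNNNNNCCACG through which ATF6 and XBP1 act with NF-Y. Searched on both strands, it was found in 0.119% of the 32851 RefSeq promoter windows and in 8 of 23 windows of the XBP1 and ATF6 target list (34.8%), which hold 22 of its 27 genes. The list was chosen as known targets of these factors, so this share is no independent support. The sites are shown because the element is the known sequence of these factors, and a match is not evidence of binding. Capitals mark the fixed bases, and each site is read 5′ to 3′ on its own strand.
Hspa5: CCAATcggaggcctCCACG
Dnajc3: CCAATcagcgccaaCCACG
Hsp90b1: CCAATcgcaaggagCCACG
Hsp90b1, second site: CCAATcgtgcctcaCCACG
Creld2: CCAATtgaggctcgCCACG
Derl3: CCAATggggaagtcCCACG
Syvn1: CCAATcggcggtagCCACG
Pdia6: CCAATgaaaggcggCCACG
Calr: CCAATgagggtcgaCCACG
In GRCm38.p6 they lie on the plus strand at chr2:34772025-34772043 (Hspa5), chr14:118937827-118937845 (Dnajc3), chr19:6046532-6046550 (Syvn1), chr12:17266491-17266509 (Pdia6), chr8:84847075-84847093 (Calr) and chr10:86705533-86705551 (second site of Hsp90b1). On the minus strand they lie at chr10:86705638-86705656 (Hsp90b1), chr15:88819520-88819538 (Creld2) and chr10:75893242-75893260 (Derl3).

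These 8 genes are those of the target list with the element, and that list had 26 of 27 genes above 0 in liver, so their signs add nothing to it. Their log2 fold changes in liver were 0.46 for Hspa5, 0.51 for Dnajc3, 0.63 for Hsp90b1, 1.32 for Creld2, 3.85 for Derl3, 0.33 for Syvn1, 0.17 for Pdia6 and 0.08 for Calr. In MEFs 7 of the 8 were below 0, from -0.46 for Hspa5 to -0.02 for Creld2, and Pdia6 was at 0.02. Among the members, 7 of 8 had a window in the RefSeq table (8 windows, Atf6 without one). On either strand, none of those windows held this element, its variant ATTGGNCCACG, the core TGACGTGG or the C/EBP-ATF element TGATGNAA, which says only that these letters are not in these windows. The variant and the core occurred in 0.0365% and 0.676% of all windows, and the C/EBP-ATF element in 3.97% of all windows and in 8 of 25 windows of the ATF4 and CHOP list (32%).

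Messages that IRE1 alpha is known to cut in stressed cells gave a list of 7. In liver all 7 were above 0, with 2 higher without overlap against 11.8% of all genes (median 0.21). In MEFs 2 were above and 5 below 0, with 3 lower without overlap against 18% of all genes (median -0.11), and none passed in either. Hgsnat, a lysosomal acetyltransferase, had 15.9, 16.6 and 14.5 FPKM in G2A against 13.2, 13.3 and 13.8 FPKM in WT livers (log2 fold change 0.21, limma adjusted p = 0.175). Col6a1, a collagen chain, had 39.8, 47.2 and 34.5 against 29.5, 16.8 and 22.9 FPKM in livers, and 26430 and 30620 against 62360, 55070 and 45880 normalized reads in MEFs (log2 fold changes 0.81 and -0.92, limma adjusted p = 0.127 and 0.269). Pdgfrb, a growth factor receptor, had 6860 and 5649 normalized reads in G2A against 17150, 11150 and 11990 in WT MEFs (limma adjusted p = 0.269). Without G2A liver 3, Hgsnat and Col6a1 passed in liver (limma adjusted p = 0.0351 and 0.034), and without WT MEF 3, Pdgfrb and Col6a1 passed in MEFs (0.0191 and 0.00571). In those fits 12.3% of all genes were called higher in liver and 11.8% lower in MEFs. Pdgfrb is also one of the mesenchyme markers, whose values in liver are given above.

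Downstream of the 4 kinases, eIF2, its exchange factor eIF2B and the phosphatase factors lay mostly below 0 in liver. Of 13 tested, 2 were above and 11 below 0, 6 were lower without overlap against 15.7% of all genes, none passed, and the median was -0.22. Eif2b1, the alpha subunit of eIF2B, had 33.2, 32.5 and 40.0 FPKM in G2A against 45.9, 45.7 and 45.0 FPKM in WT livers (log2 fold change -0.37, limma adjusted p = 0.114). Eif2b4, the delta subunit, had 31.7, 32.7 and 32.4 against 36.6, 39.0 and 39.3 FPKM (log2 fold change -0.24, limma adjusted p = 0.111). For both genes every G2A liver lay below every WT liver, and without G2A liver 3 both passed, with 5 of the 13 called lower, where 12.2% of all genes were (limma adjusted p = 0.00963 and 0.0327). In MEFs 11 of the 13 were above and 2 below 0 (median 0.19), 5 were higher without overlap against 18.9% of all genes, and none passed. Eif2s3x, the gamma subunit of eIF2, had 8442 and 8873 normalized reads in G2A against 5132, 5973 and 7046 in WT MEFs (limma adjusted p = 0.297). Eif2b2, the beta subunit of eIF2B, had 2409 and 2174 against 1510, 1706 and 1401 (limma adjusted p = 0.269), and for both genes the G2A MEFs were the higher ones. Without WT MEF 3 both passed (limma adjusted p = 0.0119 and 0.0278), 2 of the 13 being called higher, where 11.9% of all genes were, and 1 lower, where 11.8% were. The list then had 8 above and 5 below 0 and a median of 0.13.

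The transcription factors ATF4 and CHOP, made when eIF2 alpha is phosphorylated, and their target genes were taken as 1 list. Of 20 tested in liver, 14 were above and 6 below 0, 11 were higher without overlap against 11.8% of all genes and 1 lower against 15.7%, none passed, and the median was 0.48. Stc2, a secreted glycoprotein, had 7.27, 7.16 and 5.35 FPKM in G2A against 2.43, 2.40 and 2.15 FPKM in WT livers (log2 fold change 1.18, limma adjusted p = 0.0811). Vldlr, a lipoprotein receptor, had 6.21, 6.66 and 4.03 against 1.72, 1.96 and 1.78 FPKM (log2 fold change 1.21, limma adjusted p = 0.0902). Atf4 itself, which is controlled largely in translation, had 167, 163 and 164 FPKM in G2A against 172, 174 and 178 FPKM in WT livers, and was named after its values were seen. With G2A liver 3 left out, 12 of the 20 were called higher, where 12.3% of all genes were, and 1 lower, where 12.2% were, Stc2 and Vldlr among them (both at a limma adjusted p of 0.00963). In MEFs 8 of 21 were above and 13 below 0, 7 were lower without overlap against 18% of all genes, none passed, and the median was -0.20. Atf5, a related factor, had 1625 and 1404 normalized reads in G2A against 4562, 2851 and 3559 in WT MEFs (log2 fold change -1.25, limma adjusted p = 0.269). Trib3, a pseudokinase that CHOP is known to induce, had 421 and 387 against 1418, 864 and 1198 (log2 fold change -1.49, limma adjusted p = 0.269), and neither gene overlapped between the groups. Without WT MEF 3 both passed (limma adjusted p = 0.0169 and 0.014), and 2 of 20 tested genes were called higher, where 11.9% of all genes were, and 3 lower, where 11.8% were.

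The interferon list had 12 genes tested in liver, 5 above and 7 below 0, with 2 higher without overlap against 11.8% of all genes and 5 lower against 15.7%, none past the test and a median of -0.20. Rsad2, 1 of the 2 higher genes, is named because it entered the test only through the G2A livers. It had 1.107, 1.255 and 1.122 FPKM in G2A against 0.6381, 0.3496 and 0.972 FPKM in WT livers. Every WT liver lay below the filter's 1 FPKM, so its non-overlap was fixed by the filter. Irf9, a partner of STAT2, had 9.72, 9.51 and 10.5 FPKM in G2A against 11.3, 12.8 and 17.3 FPKM in WT livers (limma adjusted p = 0.187). Ifi35, an interferon-induced protein, had 12.3, 9.95 and 18.9 against 19.8, 20.2 and 24.7 FPKM (limma adjusted p = 0.173, and 0.013 without G2A liver 3). Without that library 12.2% of all genes were called lower, and Rsad2 left the test, so the list had 11 tested genes. In MEFs 1 of 14 was above 0 with a median of -1.23, and without WT MEF 3 the counts were 9 above and 5 below 0 with a median of 0.17, and 3 were called higher, where 11.9% of all genes were, and 1, Stat2, lower, where 11.8% were (limma adjusted p = 0.0204).

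**Figure D5:**
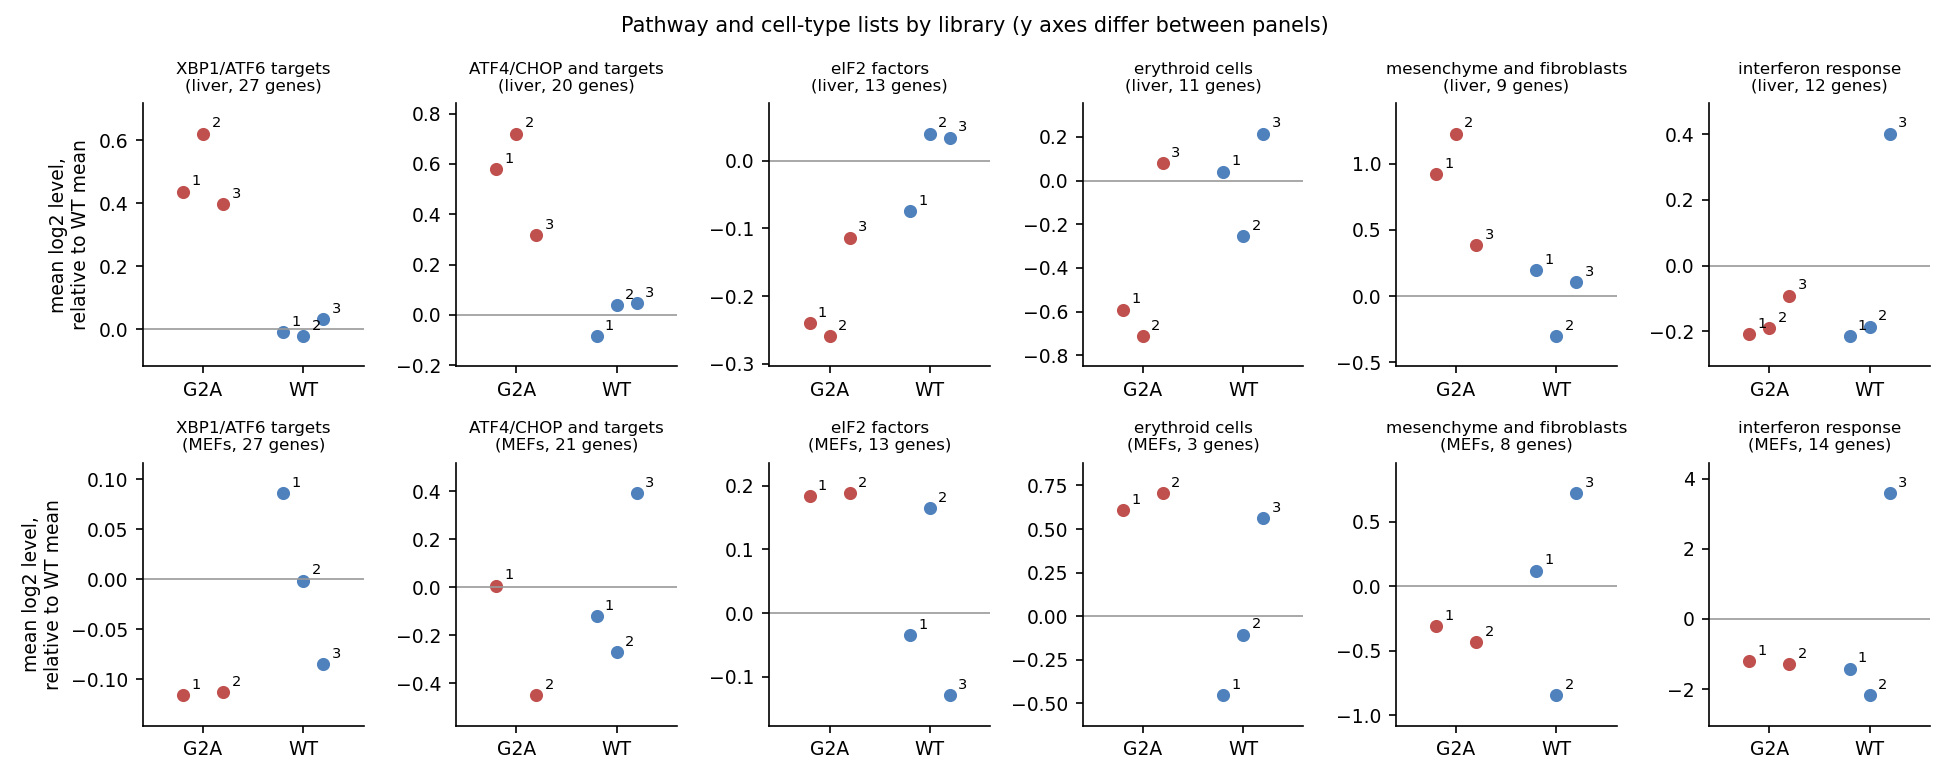
Mean log2 level of 6 gene lists relative to the WT mean (y axis, scales differ between panels) in each G2A (left, red) and WT (right, blue) library with its replicate number, in liver (top) and MEFs (bottom). The XBP1 and ATF6 target list lies at 0.44, 0.62 and 0.40 in the G2A livers, the erythroid list is near 0 only in G2A liver 3 among them, and the interferon list reaches 3.59 in WT MEF 3.

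For each member the 2 genes of most similar pattern were those with the smallest root mean square difference of centred log2 values over the 11 libraries, among 10817 other genes. This is a description with no test. For Atf6 they were Iqsec1 (0.06) and Ncoa3 (0.06), for Atf6b Tecr (0.06) and Nudt3 (0.06), and for Xbp1 Slc29a3 (0.06) and Tgoln1 (0.06). Eif2ak4 lay closest to Unc45a (0.06) and Slc6a6 (0.06), and Ern1 to Fam35a (0.08) and 2810474O19Rik (0.08). Eif2ak3 lay closest to Tbc1d8b (0.07) and Edem1 (0.08), an ER degradation lectin that is also in the target list. Eif2ak1 lay closest to Psme3 (0.07), a proteasome activator, and Pigq (0.08). Eif2ak2 had the most distant nearest genes, Adar (0.13), an editor of double-stranded RNA, and Rnaset2b (0.13).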

How the data were processed

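Per the labels' protocols, Trizol RNA was sequenced, reads were trimmed to 50 bp and aligned to mm9. Per the submitters' processing notes, Cufflinks 2.2.1 and TopHat2 2.1.1 were used, and mm10 is named beside mm9. The deposited liver values are FPKM, read from the named tool and the values since the header names no unit. The deposited MEF values are a normalized signal per gene: multiplied by a size factor of each library (0.958 to 1.06), 100% of them were whole reads within 0.01. For the counting tool, annotation and strand setting, nothing was stated in the sources used here.

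Within each sample type, genotype was the only term in a limma 3.58.1 fit to log2(value + 1) (R 4.3.3, variance trend), with Benjamini-Hochberg adjusted p-values called at 0.05. Fold changes are on that scale, which understates changes of low values. Liver genes had at least 1 FPKM in 3 libraries, MEF genes at least 10 normalized reads in 2. Effects were compared between sample types with Satterthwaite degrees of freedom over 10818 genes. On recovered reads, edgeR 4.0.16 and DESeq2 1.42.0 were alternatives. Other alternatives were the pseudocount, scaling, filters, no trend, library weights, the sample number as a block and each library left out. The scripts were tested on simulated data. Levels in FPKM and in normalized reads were never compared, only the genotype effects. Lengths and positions came from GENCODE models of NCBIM37, promoters from RefSeq (GRCm38.p6).

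Members and lists were chosen with earlier results of these data known. Named genes were all members, Psmc1, the 2 genes of most similar pattern for each member, and from each pathway list in each sample type up to 4 genes past the test or else the 2 with the smallest p; 1 gene under this rule is not reported here. Lists share Hspa5, Dnajc3 and Pdgfrb.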

Additional observations from a re-analysis of the deposited data

Results flagged for a closer look

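For 10 genes of the pathway lists, named here because they passed the test, the genotype effect differed between sample types: the liver minus MEF difference in log2 fold change passed at an adjusted p of 0.0144 to 0.0451 in the test on the limma fits, which 1.34% of all genes passed with the liver effect above and 0.869% with it below. Among XBP1 and ATF6 targets the difference was 0.92 for Hspa5, 0.90 for Pdia4, 1.35 for Creld2, 4.15 for Derl3 and 0.91 for Sel1l. It was 1.74 for Atf5 and 3.38 for Trib3 of the ATF4 and CHOP list. Pdgfrb and Col6a1 of the IRE1 decay list, both made by mesenchyme, had differences of 1.45 and 1.73. For Eif2b2 it was -0.81. Derl3 passed the liver filter on low values only through the G2A livers. In MEFs it was low, at 14.8 and 23.5 normalized reads in G2A against 26.8, 26.1 and 17.9 in WT. Pdia4 had 153, 193 and 146 FPKM in G2A against 96.3, 91.4 and 95.6 FPKM in WT livers, and 6636 and 7152 against 7969, 7908 and 6646 normalized reads in MEFs. Creld2 had 79.8, 113 and 82.1 against 32.3, 39.5 and 35.0 FPKM, and 2033 and 1825 against 1917, 2137 and 1832 normalized reads. Each of these calls was lost without G2A MEF 1, without G2A MEF 2 and without WT MEF 1, with adjusted p up to 0.562 over the limma fits. Between 6 and 8 of the 10 were also lost without G2A liver 1, G2A liver 2, WT liver 2 or WT liver 3, each left out alone, with no filter on low values and with no variance trend. None of the 10 changed direction under any alternative run.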

How the results depend on the processing

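No member passed in liver, in MEFs or in the difference between them. With limma's library weights, 4 members passed in liver (Xbp1, Atf6, Eif2ak1 and Eif2ak3), when 3376 of all 12938 genes were called higher and 2681 lower. In MEFs 6 members passed with these weights, when 3149 of all 13241 genes were called higher and 2975 lower. Leaving out 1 library gave 0 to 2 members in liver, 0 to 2 in MEFs and 0 to 5 for the difference, above 0 only without G2A liver 3 (1578 genes called higher and 1562 lower) or WT MEF 3 (1544 and 1532). For the difference, 145 genes passed with the liver effect above and 94 below, against 555 and 401 without G2A liver 3, 1586 and 1676 without WT MEF 3, 26 and 3 with no filter and 16 and 3 with no variance trend. Whether the replicate numbers pair the samples could not be decided from the values. Same-numbered livers correlated at 0.18, -0.10 and 0.10 after centring each genotype, and differently numbered livers at -0.22 to 0.13. In MEFs the same-numbered values were 0.13 and -0.03. They cannot show pairing, because 2 centred G2A libraries mirror each other. With the number as a replicate block, 0 members passed in liver (1 gene higher and 1 lower over all), 3 in MEFs (1915 and 1869) and 6 for the difference, where 16.7% of all genes passed with the liver effect above and 17.7% with it below; in MEFs that fit drops WT MEF 3, which has no G2A partner. Derl3 in liver lost its call under the block (limma adjusted p = 0.0725). Where 1 G2A MEF is left, it is assumed to vary like the WT MEFs. Eif2ak2 in liver changed sign with library weights (0.0019) and without G2A liver 2 (0.083) or WT liver 2 (0.044). No other member changed sign, and pseudocount, scaling, filter and trend moved no member past the threshold. The scalings shifted the median of all genes by under 0.1. The liver depth is unknown, and the number of libraries limits the precision of both sample types.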
